A study of Mus musculus with 12 samples.

Results

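The genes described here encode collagen chains, taken as every line of the deposited count table whose gene symbol is Col, a number, the letter a and a number. The rule found 37 chains among 18227 genes, and 32 of them were among the 15294 genes that passed a filter on low counts and were tested. The table came from poly A RNA sequencing of 12 libraries of mouse liver cells prepared as hepatocytes after 70% hepatectomy, with 3 libraries in each of 4 groups. The study asked how an antibody against Gr1, an antigen of granulocytes, alters regenerating hepatocytes.

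All mice were male wild-type BALB/C animals of 8 weeks. The isotype groups received a non-targeting antibody and the anti-Gr1 groups an antibody to Gr1, each as 200 µg in 100 µl of saline into the peritoneum. The dose was repeated 2 days later, when the liver was resected. Cells were taken on post-operative day 1 (POD1) or day 2 (POD2), giving the groups isotype POD1, isotype POD2, anti-Gr1 POD1 and anti-Gr1 POD2. The liver was digested with collagenase and the cells were spun at low speed, which enriches hepatocytes without sorting them, so RNA of other liver cells was present. Whether the 3 libraries of a group are separate animals is not stated, so p-values measure the spread between these libraries, which may be technical.

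Totals lay between 13189392 and 15822043 counts per library. Levels are CPM, counts relative to the library size after scaling with TMM factors (trimmed mean of M-values), which ran from 0.602 to 1.28. Ly6g, the gene of the main Gr1 antigen, goes against the label: the 6 isotype libraries held 0.246 to 1.97 CPM, and the 6 labelled anti-Gr1 held 24.2 to 54.8 CPM. Summed markers of hepatocytes ran from 3885 to 141045 CPM and were highest in isotype POD2, at 137267 CPM or more.

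Some libraries were nearly the same. Isotype POD2 replicates 1 and 2 differed by a chi-square per gene of 1.68, where counting noise gives a value of about 1, and anti-Gr1 POD2 replicates 1 and 2 by 5.70. The third anti-Gr1 libraries of POD1 and POD2, which carry different day labels, differed by 3.73, while the next closest pair gave 63.8. Means ± SD below count each same-group pair once, so n = 3 at POD1 and n = 2 at POD2. Tests used the 12 libraries as labelled, and 3 further fits stand beside the calls of chains; for lists of other genes, the counts with merged pairs or with both changes are given for the larger changes. The first merges the same-group pairs, the second leaves out the pair that spans the days, and the third does both. The second leaves anti-Gr1 POD2 with only its near-identical replicates 1 and 2, counted as separate. All groups share 1 estimate of the spread, so p-values there and with the libraries as labelled can be too small. The same holds for fits that left out 1 library, because each kept at least 1 same-group pair as separate libraries. In the third, anti-Gr1 POD2 is 1 merged library. Calls kept or lost in that fit do not measure the spread within that group.

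Collagens are triple-helical proteins of the extracellular matrix, built from chains that are encoded by separate genes and assembled in the endoplasmic reticulum before secretion. Fibrillar chains form the tensile fibrils of interstitial matrix, type IV chains form the mesh of basement membranes, and other classes coat fibrils, make beaded microfilaments, span the plasma membrane or carry heparan sulfate. In liver, stellate cells and portal fibroblasts are the main source of fibrillar chains, sinusoidal endothelial and stellate cells make type IV collagen, and hepatocytes make type XVIII collagen. After partial hepatectomy the matrix is remodelled while the remnant grows.

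The DNA at the starts of a few chains is shown because their RNA moved together or in opposite directions. Sequences are from RefSeq (GRCm38.p6), read 5′ to 3′ on the strand stated, and capitals mark the letters TATAAA (known as the TATA box), GGGCGG (the GC box) or CCAAT on either strand. None of these motifs contains another. Col4a1 and Col4a2 are transcribed away from each other from chromosome 8 and their annotated ends overlap by 22 bases, which hold a GC box (chr8:11312805-11312826, plus strand). The other stretches lie in the 250 bases before an annotated start, without exonic bases. They belong to Col3a1 (chr1:45311288-45311537, plus), Col13a1 (chr10:61979109-61979358, minus), Col18a1 at its upstream start (chr10:77166549-77166780, minus) and Col6a2 (chr10:76623631-76623880, minus).
Col4a1 and Col4a2, shared start: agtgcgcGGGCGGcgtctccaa
Col3a1: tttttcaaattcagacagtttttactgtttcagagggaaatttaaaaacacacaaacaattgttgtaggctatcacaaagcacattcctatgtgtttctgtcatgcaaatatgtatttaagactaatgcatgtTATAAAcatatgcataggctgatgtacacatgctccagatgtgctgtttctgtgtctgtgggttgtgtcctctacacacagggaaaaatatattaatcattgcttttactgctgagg
Col13a1: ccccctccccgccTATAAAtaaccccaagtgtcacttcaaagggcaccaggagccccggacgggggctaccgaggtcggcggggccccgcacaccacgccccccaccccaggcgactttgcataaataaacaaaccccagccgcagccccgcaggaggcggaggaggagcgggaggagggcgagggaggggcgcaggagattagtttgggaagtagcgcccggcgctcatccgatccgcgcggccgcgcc
Col18a1: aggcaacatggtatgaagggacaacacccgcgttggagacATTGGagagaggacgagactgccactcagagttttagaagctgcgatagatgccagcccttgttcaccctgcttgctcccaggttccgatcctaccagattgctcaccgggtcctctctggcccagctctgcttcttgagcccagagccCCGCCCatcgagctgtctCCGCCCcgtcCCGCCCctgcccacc
Col6a2: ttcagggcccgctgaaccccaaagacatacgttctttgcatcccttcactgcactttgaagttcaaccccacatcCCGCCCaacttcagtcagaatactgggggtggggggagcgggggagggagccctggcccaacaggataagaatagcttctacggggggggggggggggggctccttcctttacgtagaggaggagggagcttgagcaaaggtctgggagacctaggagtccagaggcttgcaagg
Col3a1 and Col13a1 each held the letters TATAAA and no GC box. The Col13a1 match lay near the upstream end of its window and the Col3a1 match near the middle of its own, both away from the start. The upstream start of Col18a1 had 3 GC boxes and 1 CCAAT, while the window before another annotated Col18a1 start held none of these motifs. The Col6a2 stretch shown had 1 GC box, while the window before another annotated Col6a2 start held 3. The window of Col6a1, not shown, held none of these motifs. Among 32 promoters of 30 chains in the RefSeq table, 12.5% held a TATA box, 37.5% the letters CCAAT and 62.5% a GC box within 250 bases. The shares over all 32851 promoters of that length were 12.4%, 33.8% and 32.7%. These are letter matches in the windows and not evidence of binding.

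A few chains held most of the collagen RNA. The 7 chains of highest mean CPM (Col3a1, Col4a1, Col4a2, Col18a1, Col1a1, Col1a2 and Col13a1) made up 84.2% of the summed mean. Per kilobase of exon, which allows levels of different genes to be compared, Col4a1 led with a mean of 75.2 CPM per kilobase, followed by Col3a1 with 69.7, Col4a2 with 57.0, Col18a1 with 49.9 and Col1a1 with 44.8. Col13a1 followed with 34.1, Col1a2 with 20.7 and Col6a1 with 16.9 CPM per kilobase.

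The summed CPM of all 37 chains ranged from 2256 to 3919.6 across the 12 libraries, a narrower range in relative terms than that of Col13a1 or Col18a1. The composition moved more than the sum. Fibrillar chains held between 25.3% and 56.9% of collagen CPM, with the lowest shares in anti-Gr1 POD1 replicate 2 (25.3%) and in the near-identical anti-Gr1 replicates 3 (33.9% at POD1 and 33.2% at POD2). Basement membrane chains held 13.5% to 17.7% in isotype POD2 and at least 24.6% in every other library. The multiplexins Col18a1 and Col15a1 together held 24.4% to 27.0% in isotype POD2 and at most 15.8% elsewhere.

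**Figure D1:**
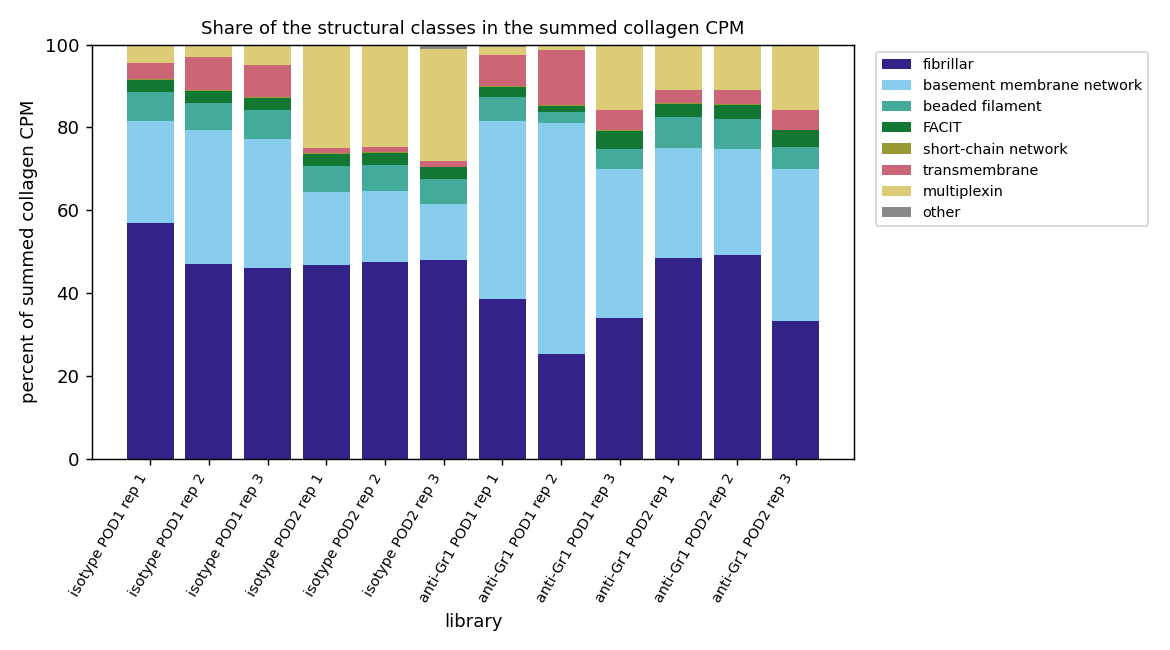
Percent of the summed TMM-scaled collagen CPM held by each structural class (stacked bars) in each of the 12 libraries. The multiplexin share is 24.4% to 27.0% in isotype POD2 and 1.20% to 2.05% in anti-Gr1 POD1 replicates 1 and 2.

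On the first day after surgery, 3 chains stood lower in libraries with the anti-Gr1 label than in isotype libraries and 0 were higher. They were Col6a1 and Col6a2, chains of the type VI microfilament, and Col15a1, a basement membrane zone collagen. Of all genes tested, 1.19% were called lower, 2.26% higher and 3.45% in either direction. The log2 fold change was negative for 25 of the 32 chains, with a median of -0.65 against about 0 for all genes tested. The groups did not overlap for 11 chains, all lower, where 10% of all genes were lower and 9.66% higher without overlap. Without the pair that spans the days, 16 chains were called, all lower, where 8.82% of all genes were called lower. With the same-group pairs merged, edgeR called 0 chains (12 at an unadjusted p under 0.05) and 0.735% of all genes, and with both changes 7 chains (Col6a1, Col6a2, Col6a3, Col5a3, Col16a1, Col18a1 and Col27a1) and 4.87% of all genes. With the libraries as labelled, 14 chains had an unadjusted p under 0.05, as did 20.9% of all genes. No such share is given with merged pairs, so the 12 chains there cannot be set against a background. DESeq2, with the libraries as labelled, called 8 chains and 8.65% of all genes. The share of pancreatic acinar transcripts, which ran from 0.0122% to 26.4% of counts across the 12 libraries, differed widely within each POD1 group. With library sizes taken without the acinar genes, edgeR called the same 3 chains, with a median of -0.64. Any other part of the acinar share in these values was not tested.

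On day 2 after surgery the direction was the other way for most chains. Col4a1, Col4a2, Col5a2, Col13a1 and Col23a1 stood higher in libraries with the anti-Gr1 label than in isotype libraries, and 0 chains were lower. Of all genes tested, 20.8% were called higher, 21.1% lower and 41.9% in either direction, so 5 of 32 chains is a share below the background. The median log2 fold change of the 32 chains was 0.41 against -0.01 for all genes. Groups did not overlap for 10 chains that were higher and 3 that were lower (Col1a1, Col5a3 and Col18a1), against 30.6% and 34.5% of all genes. The call counts were 3 with the same-group pairs merged (25.3% of all genes) and 9 without the pair that spans the days (40.4%). With both changes anti-Gr1 POD2 was only the merged pair, so calls in that fit cannot measure the spread within that group. The median log2 fold change of the chains was then 0.57.

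Between POD1 and POD2 under the isotype antibody, Col18a1 rose and Col4a1, Col4a2, Col5a2, Col13a1 and Col17a1 fell. Of all genes tested, 23.0% were called higher, 23.4% lower and 46.4% in either direction. The median log2 fold change of the chains was -0.20 against 0.03 for all genes. The groups did not overlap for 5 chains that were higher and 7 that were lower, where 33.0% and 31.4% of all genes were so. The call counts were 5 with the same-group pairs merged (32.3% of all genes) and 9 without the pair that spans the days (48.7%). With both changes the median log2 fold change of the chains was -0.25. The POD2 antibody comparison and this one share the isotype POD2 libraries, so their values are not independent of each other.

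Under the anti-Gr1 antibody, 0 chains and 0% of all genes were called between the days by edgeR, also with the same-group pairs merged. An unadjusted p under 0.05 was given to 18 chains, against 15.4% of all genes, and DESeq2 called 2 chains (Col1a1 and Col1a2, both higher), where it called 0.680% of all genes. The log2 fold change was positive for 28 of the 32 chains, with a median of 0.71 against -0.02 for all genes. Groups did not overlap for 13 chains, all higher at POD2, where 6.89% of all genes were higher and 8.60% lower in this way. Without the near-identical pair that carries both day labels, 17 chains were called higher and 1 lower, against 16.4% of all genes in either direction, and 7 chains were called when the same-group pairs were merged as well (3.35% of all genes).

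The difference between the antibody effects of the days, tested as an interaction, was called for Col6a1, Col6a2 and Col5a2, all towards a higher effect at POD2. Of all genes, 8.88% were called in that direction, 7.72% in the other and 16.6% in either. The difference was positive for 30 of the 32 chains, with a median of 0.89 on the log2 scale against -0.02 for all genes. An unadjusted p under 0.05 was given to 14 chains, against 32.9% of all genes. The unadjusted counts with merged pairs below have no such share, so they cannot be set against a background. The difference was called for 14 chains without the pair that spans the days (12.9% of all genes). With the same-group pairs merged edgeR called it for 0 chains (10 at an unadjusted p under 0.05) and 5.60% of all genes, and with both changes for 0 chains (15 at an unadjusted p under 0.05) and 0.467%.

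**Figure D2:**
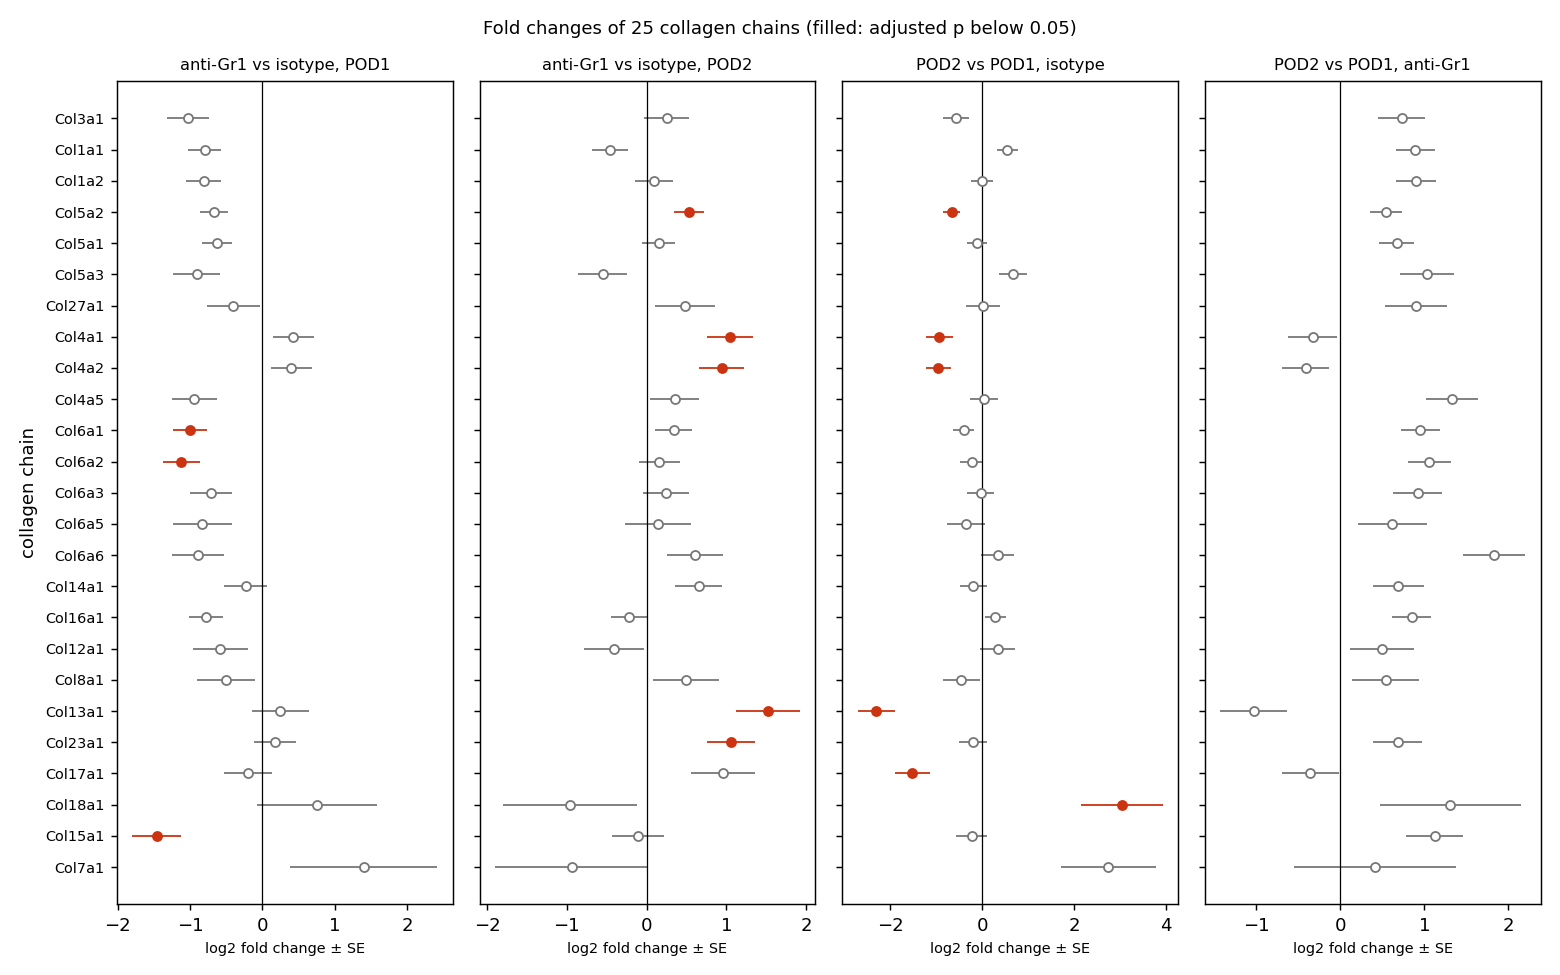
Log2 fold changes (points) with standard errors (bars) for 25 collagen chains in 4 comparisons over the 12 libraries as labelled; filled points have an adjusted p below 0.05. Most chains lie below 0 for the antibody at POD1 and above 0 for the day under anti-Gr1.

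Fibrillar chains were represented by 10 genes, of which 8 were tested. Col3a1 encodes the homotrimeric type III collagen of reticular fibres, and Col1a1 and Col1a2 the chains of type I collagen, the main collagen of scar. In replicate order, Col3a1 stood at 1137, 781 and 839 CPM in isotype POD1 and at 671, 682 and 523 CPM in isotype POD2. It stood at 435, 476 and 435 CPM in anti-Gr1 POD1 and at 929, 861 and 443 CPM in anti-Gr1 POD2. Every anti-Gr1 POD1 library was below every isotype POD1 library, and replicate 3 of anti-Gr1 POD2 lay with the anti-Gr1 POD1 libraries, among them its near-identical partner. The means at POD1 were 449 ± 23.9 and 919 ± 191 CPM (SD, n = 3 each), a log2 fold change of -1.03 ± 0.29 (SE) that missed the threshold (adjusted p = 0.0749). Without the pair that spans the days it was -1.01, with an adjusted p of 0.0172. In bulk RNA, fewer cells of a type and less RNA per cell cannot be told apart, here and for every chain below.

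Col1a1 stood at 361, 253 and 245 CPM in isotype POD1 and at 431, 412 and 416 CPM in isotype POD2. In anti-Gr1 POD1 it stood at 162, 144 and 188 CPM, and in anti-Gr1 POD2 at 379, 318 and 216 CPM. Isotype POD2 was above all other libraries and anti-Gr1 POD1 below all others. The POD1 antibody difference was -0.80 ± 0.23 (adjusted p = 0.0829; 0.0165 without the pair that spans the days), and the isotype day difference 0.55 ± 0.23 (adjusted p = 0.0673; 0.0242 without that pair).

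Col1a2, the partner chain, stood at 337, 258 and 257 CPM in isotype POD1 and at 296, 294 and 259 CPM in isotype POD2, which overlapped. It stood at 173, 142 and 170.4 CPM in anti-Gr1 POD1 and at 370.4, 344 and 189 CPM in anti-Gr1 POD2. Only the anti-Gr1 POD1 libraries were apart, below all others. Its POD1 antibody difference was -0.81 ± 0.24 (adjusted p = 0.0886; 0.0133 without the pair that spans the days). The ratio of Col1a1 to Col1a2 per kilobase was 2.66 to 3.05 in isotype POD2 and between 1.75 and 2.16 in the other 9 libraries. The ratio of Col3a1 to Col1a1 per kilobase was 0.84 to 1.11 in isotype POD2 and between 1.37 and 2.29 elsewhere.

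**Figure D3:**
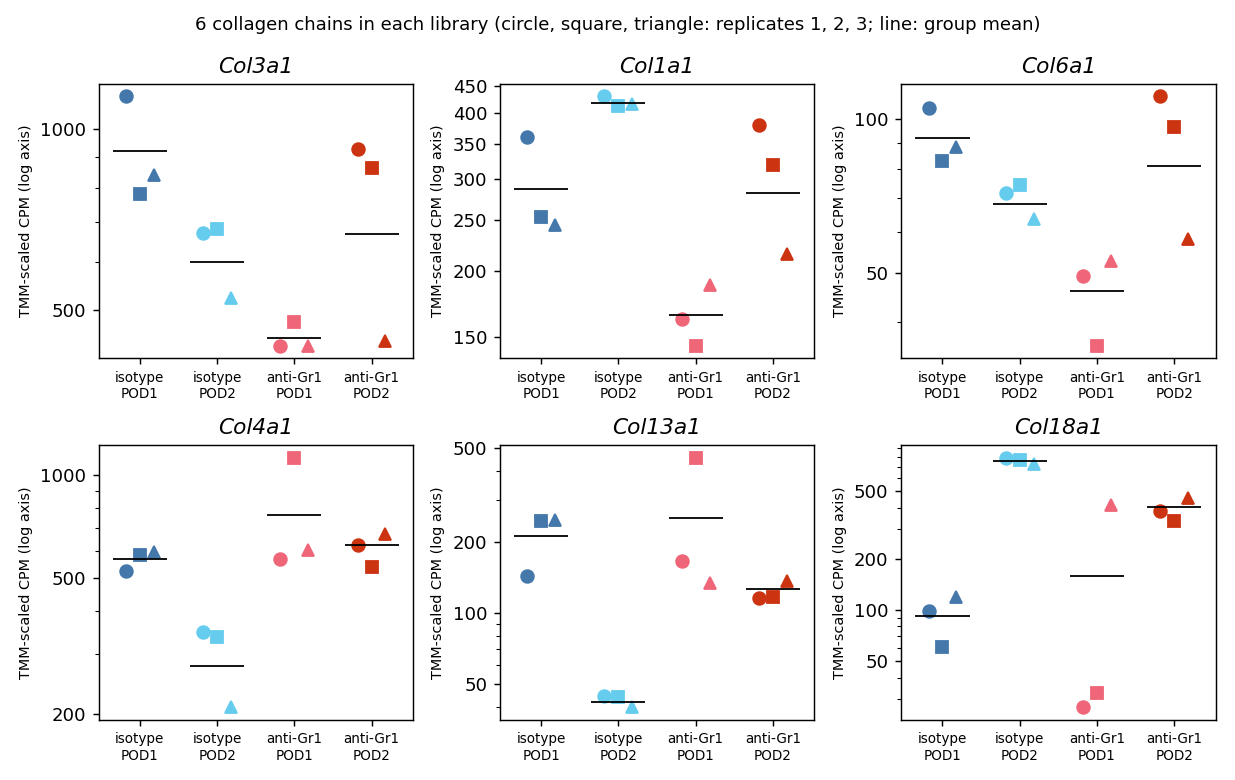
TMM-scaled CPM (log axis) of 6 collagen chains in each library, grouped by antibody and day; shapes mark replicates 1, 2 and 3 and lines the group means with same-group near-identical pairs averaged. Col1a1 and Col18a1 are highest in isotype POD2, where Col4a1 and Col13a1 are lowest.

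Type V chains nucleate type I fibrils. Col5a2 stood at 94.7, 70.8 and 64.5 CPM in isotype POD1 and at 50.9, 53.8 and 40.6 CPM in isotype POD2. It stood at 47.8, 48.4 and 48.2 CPM in anti-Gr1 POD1 and at 80.9, 77.0 and 52.6 CPM in anti-Gr1 POD2. Isotype POD1 did not overlap isotype POD2 or anti-Gr1 POD1, while the POD2 groups overlapped. Col5a2 fell by 0.66 ± 0.19 on the log2 scale from isotype POD1 (76.7 ± 15.9 CPM) to isotype POD2 (46.5 ± 8.30 CPM), with an adjusted p of 0.0168 (0.0327 merged, 0.0094 without the pair that spans the days, 0.0454 with both). The call was lost without isotype POD1 replicate 1 (0.074). At POD2 it was higher under anti-Gr1 by 0.53 ± 0.19 (adjusted p = 0.0455). The adjusted p rose to 0.108 with merged pairs and to 0.129 with both changes, and among fits that left out a library the call held only without anti-Gr1 POD2 replicate 3 (adjusted p up to 0.145 in the other 5). The difference between the antibody effects was 1.21 ± 0.27 (adjusted p = 0.0155), and 0.0575 with the pairs merged, 0.0123 without the pair that spans the days and 0.132 with both; it held in 12 of 12 fits that left out a library.

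Col5a1, the other common type V chain, stood at 85.2, 57.9 and 55.9 CPM in isotype POD1 and at 66.5, 65.4 and 52.7 CPM in isotype POD2. It stood at 36.6, 45.2 and 47.0 CPM in anti-Gr1 POD1 and at 86.3, 65.0 and 54.2 CPM in anti-Gr1 POD2. As for type I, anti-Gr1 POD1 lay below the other groups, and the POD1 difference of -0.63 ± 0.21 missed the threshold (adjusted p = 0.128). Col5a1 to Col5a2 per kilobase was 1.37 to 1.48 in isotype POD2 and 0.87 to 1.20 elsewhere. Col5a2 and Col3a1 are neighbours on chromosome 1, 24614 bases apart, and Col3a1 to Col5a2 per kilobase varied between 8.23 and 12.88.

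Col5a3, a further type V chain, stood at 22.1, 14.5 and 20.3 CPM in isotype POD1 and at 28.2, 31.1 and 31.5 CPM in isotype POD2. In the anti-Gr1 libraries it stood at 6.65, 7.45 and 16.3 CPM at POD1 and at 25.1, 21.6 and 15.3 CPM at POD2. Isotype POD2 was above all other libraries, and replicate 3 of anti-Gr1 POD1 was above its group partners. Its POD1 antibody difference was -0.91 ± 0.32 (adjusted p = 0.139) with that library and -1.42 (adjusted p = 0.00217) without the pair that spans the days.

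Col27a1, a fibrillar chain known from cartilage, stood at 12.8, 17.6 and 18.2 CPM in isotype POD1 and at 16.4, 18.9 and 13.5 CPM in isotype POD2. It stood at 8.28, 6.67 and 21.8 CPM in anti-Gr1 POD1 and at 22.2, 21.0 and 25.1 CPM in anti-Gr1 POD2. Replicate 3 of anti-Gr1 POD1 again lay with the anti-Gr1 POD2 libraries. Its POD1 difference moved from -0.40 (adjusted p = 0.564) to -1.11 (adjusted p = 0.00935) without the pair that spans the days. Col11a2 ranged from 0.985 to 2.78 CPM, and Col24a1 and Col11a1 reached at most 0.657 and 0.584 CPM and were not tested.

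The basement membrane chains Col4a1 and Col4a2 join in the same trimer of type IV collagen. Col4a1 stood at 524, 584 and 596 CPM in isotype POD1 and at 348, 337 and 209 CPM in isotype POD2. It stood at 568, 1128 and 606 CPM in anti-Gr1 POD1 and at 627, 537 and 672 CPM in anti-Gr1 POD2. Isotype POD2 was below all 9 other libraries, and anti-Gr1 POD1 replicate 2 was the highest. Col4a1 fell by 0.93 ± 0.29 on the log2 scale from isotype POD1 (568 ± 38.5 CPM) to isotype POD2 (276 ± 94.4 CPM), with an adjusted p of 0.0236 (0.0454 merged, 0.0194 without the pair that spans the days, 0.064 with both). That call was lost without isotype POD1 replicate 2 or 3 or isotype POD2 replicate 3 (adjusted p up to 0.0621). At POD2 it was higher under anti-Gr1 (627 ± 63.4 CPM) by 1.04 ± 0.29, with an adjusted p of 0.0159 (0.0412 merged, 0.0296 without the pair, 0.165 with both).

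Col4a2 stood at 354, 418 and 410.3 CPM in isotype POD1 and at 234, 215 and 163 CPM in isotype POD2. It stood at 396, 786 and 377 CPM in anti-Gr1 POD1 and at 409, 339 and 425 CPM in anti-Gr1 POD2. The order of the libraries resembled that of Col4a1, with isotype POD2 lowest and anti-Gr1 POD1 replicate 2 highest. It fell by 0.95 ± 0.28 over the isotype days (adjusted p = 0.0173; 0.0398 merged, 0.0111 without the pair, 0.0485 with both), and the call was lost without isotype POD1 replicate 2 (0.0512). At POD2 it was higher under anti-Gr1 by 0.94 ± 0.28 (adjusted p = 0.02; 0.0499 merged, 0.0298 without the pair, 0.175 with both), and that call was lost without anti-Gr1 POD2 replicate 1 or 3 (up to 0.0595). Col4a1 to Col4a2 per kilobase stayed between 1.14 and 1.43 over the 12 libraries. No source used here gives the strand setting of the counting, so reads within the 22 shared bases shown above cannot be assigned.

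Col4a5, an X-linked type IV chain of other trimers, did not follow them. It stood at 6.90, 4.57 and 5.32 CPM in isotype POD1 and at 6.55, 6.83 and 3.82 CPM in isotype POD2. With anti-Gr1 the level stood at 2.12, 2.33 and 4.31 CPM at POD1 and at 8.04, 7.52 and 6.44 CPM at POD2. Anti-Gr1 POD1 was below isotype POD1 without overlap. The POD1 difference was -0.94 ± 0.31 (adjusted p = 0.119; 0.017 without the pair that spans the days). Col4a1 to Col4a5 per kilobase ran from 44.41 in isotype POD2 to 436.13 in anti-Gr1 POD1 replicate 2. Col4a3 and Col4a4, head-to-head genes of the kidney and lung network, stayed at or below 1.04 and 2.56 CPM.

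Summed markers of sinusoidal endothelium, 14 genes without collagens, were lowest in isotype POD2, at 2249 to 2966 CPM, where isotype POD1 held 8805 to 10507 CPM. The range was 6987 to 9710.1 CPM for anti-Gr1 at POD1 and 5178 to 8276 CPM for anti-Gr1 at POD2. All 14 were called lower in isotype POD2 than in isotype POD1, where 23.4% of all genes were, also in each of the 3 further fits. At POD2, 13 were called higher under anti-Gr1, where 20.8% of all genes were, and 2 (Oit3 and Fcgr2b) with the pairs merged and the pair that spans the days left out. Per 1000 CPM of these markers, Col4a1 was 93.1 to 117 CPM in isotype POD2 and 56.7 to 59.5 in isotype POD1, so relative to the markers isotype POD2 was the higher. The part of the endothelial share in the type IV differences was not tested.

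Type VI collagen forms beaded microfilaments around cells, and Col6a1, Col6a2 and Col6a3 make its main trimer. Col6a1 stood at 105, 82.7 and 88.1 CPM in isotype POD1 and at 71.5, 74.2 and 63.7 CPM in isotype POD2. It stood at 49.2, 35.9 and 52.7 CPM in anti-Gr1 POD1 and at 111, 96.6 and 58.2 CPM in anti-Gr1 POD2. Anti-Gr1 POD1 was below all other libraries, and anti-Gr1 POD2 replicate 3 was the nearest to it. At POD1 the means were 45.9 ± 8.87 CPM under anti-Gr1 and 92.1 ± 11.9 CPM under isotype, a log2 fold change of -1.0 ± 0.23 (adjusted p = 0.0413). The adjusted p was 0.112 with the pairs merged, 0.00472 without the pair that spans the days and 0.0337 with both, and the call was lost without any 1 of the isotype POD1 libraries or anti-Gr1 POD1 replicate 2 (up to 0.119). The difference between the antibody effects was 1.35 ± 0.32 (adjusted p = 0.019), with 0.0726 merged, 0.00421 without the pair and 0.087 with both, and held in 12 of 12 fits that left out a library.

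Col6a2 stood at 92.5, 73.6 and 81.7 CPM in isotype POD1 and at 78.3, 66.5 and 67.0 CPM in isotype POD2. It stood at 47.5, 29.8 and 36.9 CPM in anti-Gr1 POD1 and at 97.1, 93.6 and 46.5 CPM in anti-Gr1 POD2. Anti-Gr1 POD2 replicate 3 lay within the anti-Gr1 POD1 libraries. At POD1 the log2 fold change was -1.12 ± 0.26 (adjusted p = 0.045; 0.113 merged, 0.0084 without the pair that spans the days, 0.0463 with both), and the call was lost without any 1 of the isotype POD1 libraries or anti-Gr1 POD1 replicate 2 (up to 0.125). The difference between the antibody effects was 1.28 ± 0.37 (adjusted p = 0.0378; 0.117 merged, 0.0103 without the pair, 0.122 with both). That call held in 3 of 12 fits that left out a library, those without anti-Gr1 POD1 replicate 1 or 2 or anti-Gr1 POD2 replicate 3, and the adjusted p reached 0.0896 in the others. Col6a1 and Col6a2 lie on the same strand of chromosome 10 with 85161 bases between them, and their ratio per kilobase varied from 1.74 to 2.72.

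Col6a3, the largest chain of the trimer, stood at 45.5, 32.3 and 34.9 CPM in isotype POD1 and at 39.2, 41.2 and 29.9 CPM in isotype POD2. It stood at 19.6, 14.0 and 35.6 CPM in anti-Gr1 POD1 and at 50.2, 40.2 and 40.2 CPM in anti-Gr1 POD2. Replicate 3 of anti-Gr1 POD1 was within the isotype POD1 range, unlike for Col6a1 and Col6a2. Its ratio to Col6a1 per kilobase was 0.25 in both anti-Gr1 replicates 3 and 0.14 to 0.20 in the other 10 libraries. The POD1 difference was -0.71 (adjusted p = 0.204), and -1.16 (adjusted p = 0.00993) without the pair that spans the days.

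Col6a5 and Col6a6 encode chains that can take the place of Col6a3. Col6a5 stood at 8.03, 11.2 and 19.5 CPM in isotype POD1 and at 10.7, 11.7 and 7.88 CPM in isotype POD2. Under anti-Gr1 it stood at 10.7, 5.79 and 5.31 CPM at POD1 and at 14.7, 12.8 and 5.89 CPM at POD2. The groups overlapped. Col6a6 stood at 6.20, 4.09 and 5.56 CPM in isotype POD1 and at 8.25, 6.57 and 5.17 CPM in isotype POD2. In the anti-Gr1 libraries it stood at 3.18, 2.12 and 3.31 CPM at POD1 and at 13.1, 12.6 and 4.92 CPM at POD2. Anti-Gr1 POD1 was below all other libraries for Col6a6, and its day difference under anti-Gr1 was 1.83 ± 0.37 (adjusted p = 0.287; 0.00109 without the pair that spans the days). Col6a4, of the same gene cluster on chromosome 9, stayed at or below 1.38 CPM.

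Summed markers of stellate cells and fibroblasts, 15 genes without collagens, were also low in isotype POD2, at 539 to 713 CPM, where isotype POD1 held 1114 to 1391 CPM. Much of these sums was Dcn alone, with 229.9 to 316 CPM in isotype POD2 and 659 to 882 CPM in isotype POD1. Des, Pdgfrb and Reln overlapped between these groups, and Lrat was lower in isotype POD2. The range was 665 to 1263 CPM for anti-Gr1 at POD1 and 1252 to 1336 CPM for anti-Gr1 at POD2. The median log2 fold change of the 15 between the antibodies at POD1 was -0.36. At POD2, 4 were higher under anti-Gr1 (3 with the pairs merged, 2 with both changes), and 4 fell between the isotype days, against 20.8% and 23.4% of all genes. Per 1000 CPM of these markers, Col6a1 was 36.3 to 74.0 CPM in anti-Gr1 POD1 and 63.3 to 94.6 in isotype POD1, which overlapped. Col1a1 per 1000 CPM of the markers was 578 to 771 CPM in isotype POD2 and 145 to 324 in the other libraries. Both ratios carry the values of Dcn in their divisor. Smooth muscle and portal fibroblast markers (8 genes, Des among them) summed to 102 to 176 CPM in anti-Gr1 POD1 and 198 to 236 CPM in isotype POD1. Mesothelial markers (6 genes) held 77.2 to 113 and 203 to 286 CPM there, so both sums were lower under anti-Gr1. At POD2 the anti-Gr1 ranges were 160.0 to 228 and 104 to 175 CPM, and the isotype ranges 148 to 179 and 62.9 to 104 CPM. The part of the stellate, fibroblast, smooth muscle and mesothelial shares in the fibrillar and type VI differences was not tested.

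**Figure D4:**
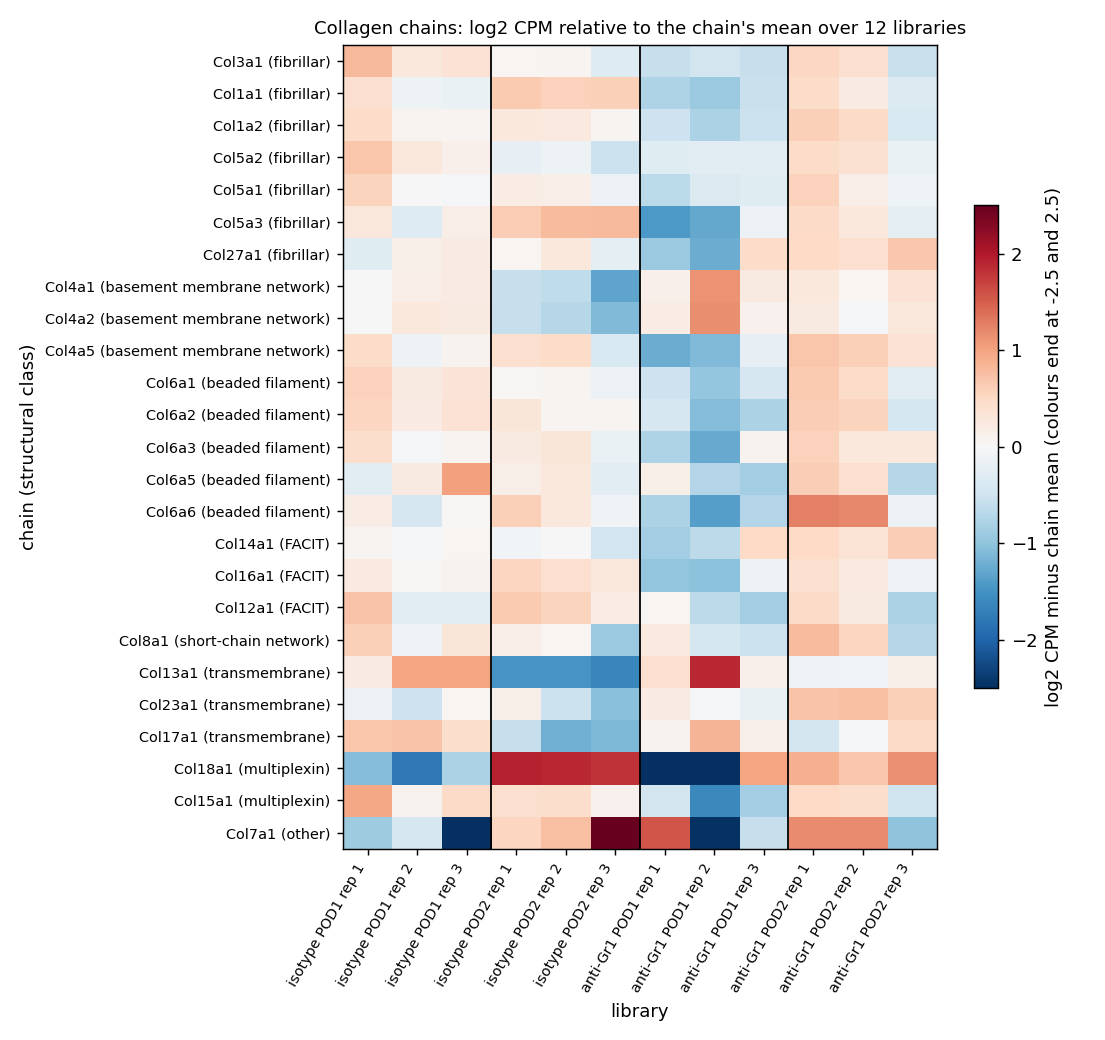
Log2 TMM-scaled CPM of 25 collagen chains relative to each chain's mean over the 12 libraries, ordered by structural class, with vertical lines between the groups. Fibrillar and beaded filament chains are mostly blue (low) in anti-Gr1 POD1, and Col4a1, Col4a2 and Col13a1 are blue in isotype POD2, where Col18a1 is red.

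Fibril-associated collagens with interrupted helices (FACIT) decorate fibrils and were represented by 6 genes, of which 4 were tested. Col14a1 stood at 71.0, 66.3 and 70.0 CPM in isotype POD1 and at 64.4, 68.2 and 48.9 CPM in isotype POD2. With anti-Gr1 the level stood at 37.2, 43.0 and 96.1 CPM at POD1 and at 95.1, 86.2 and 104 CPM at POD2. Anti-Gr1 POD1 replicate 3 lay with the anti-Gr1 POD2 libraries, all above isotype POD2. Its POD1 difference was -0.23 (adjusted p = 0.689), and -0.78 (adjusted p = 0.0137) without the pair that spans the days.

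Col16a1 stood at 13.7, 11.9 and 12.4 CPM in isotype POD1 and at 16.9, 15.6 and 14.2 CPM in isotype POD2. Under anti-Gr1 it stood at 5.87, 5.69 and 10.7 CPM at POD1 and at 15.4, 13.7 and 10.9 CPM at POD2. Anti-Gr1 POD1 was below all other libraries. Its POD1 difference was -0.78 ± 0.23 (adjusted p = 0.0958; 0.00227 without the pair that spans the days). Col12a1, a chain of dense connective tissue, stood at 9.06, 4.57 and 4.54 CPM in isotype POD1 and at 8.61, 8.06 and 6.28 CPM in isotype POD2. In the anti-Gr1 libraries it stood at 5.73, 3.52 and 3.00 CPM at POD1 and at 7.67, 6.41 and 3.19 CPM at POD2. Its groups overlapped between the antibodies at each day. Col20a1 ranged from 2.80 to 6.16 CPM and lay just outside the mean of 5 CPM used for naming, with a mean of 4.66 CPM, while Col4a5 lay just inside with 5.40. Col9a3 and Col22a1 reached at most 0.777 and 0.458 CPM and were not tested.

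The short-chain network collagen Col8a1, known from vessel walls, stood at 8.95, 5.47 and 7.30 CPM in isotype POD1 and at 6.64, 6.13 and 3.08 CPM in isotype POD2. With anti-Gr1 the level stood at 7.0, 4.35 and 4.06 CPM at POD1 and at 10.2, 8.57 and 3.60 CPM at POD2. The groups overlapped and no comparison was called. Its partner Col8a2 stayed at or below 1.24 CPM.

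Transmembrane collagens are anchored in the cell membrane and can be shed. Col13a1 stood at 143, 244 and 246 CPM in isotype POD1 and at 44.4, 44.2 and 39.8 CPM in isotype POD2. It stood at 165, 454 and 134 CPM in anti-Gr1 POD1 and at 116, 117 and 136 CPM in anti-Gr1 POD2. Isotype POD2 was below the 9 other libraries by a wide gap, and anti-Gr1 POD1 replicate 2 was the highest, as for Col4a1. It fell by 2.30 ± 0.41 on the log2 scale from isotype POD1 (211 ± 58.9 CPM) to isotype POD2 (42.0 ± 3.21 CPM), with an adjusted p of 0.00133. The call held with the pairs merged (0.011), without the pair that spans the days (0.000493), with both (0.00869) and in 6 of 6 fits that left out a library.

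At POD2 Col13a1 was higher under anti-Gr1 (126 ± 13.4 CPM) by 1.52 ± 0.40 (adjusted p = 0.0116). The call held without the pair that spans the days (0.0118) and in 6 of 6 fits that left out a library, and was lost with the same-group pairs merged (0.0503) and with both changes (0.124). Col13a1 per 1000 CPM of the sinusoidal endothelial markers was 15.0 to 17.7 CPM in isotype POD2 and 16.2 to 23.7 CPM in isotype POD1, which overlapped. For anti-Gr1 it was 17.4 to 46.8 CPM at POD1 and 16.4 to 22.5 CPM at POD2. The highest library was 11.4 times the lowest for Col13a1 itself and 3.13 times for this ratio. Relative to Col4a1 per kilobase, Col13a1 was 0.21 to 0.31 in isotype POD2 and 0.44 to 0.68 in isotype POD1.

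Col17a1 and Col23a1 were low. Col17a1, a hemidesmosome collagen of epithelia, stood at 1.29, 1.32 and 1.08 CPM in isotype POD1 and at 0.538, 0.350 and 0.369 CPM in isotype POD2. Under anti-Gr1 it stood at 0.849, 1.45 and 0.874 CPM at POD1 and at 0.584, 0.785 and 1.11 CPM at POD2. Isotype POD2 was below all others, with counts as low as 3. Its fall over the isotype days was called (-1.52 ± 0.38, adjusted p = 0.00847; 0.023 merged, 0.00898 without the pair that spans the days, 0.0419 with both) and held in 6 of 6 fits that left out a library. Col23a1 stood at 1.62, 1.25 and 1.85 CPM in isotype POD1 and at 1.97, 1.23 and 0.862 CPM in isotype POD2. In the anti-Gr1 libraries it stood at 2.05, 1.76 and 1.56 CPM at POD1 and at 2.92, 3.01 and 2.70 CPM at POD2. Anti-Gr1 POD2 was above all others. At POD2 the antibody difference was 1.06 ± 0.30 (adjusted p = 0.0167; 0.0376 merged, 0.0313 without the pair that spans the days, 0.147 with both), and the call was lost without isotype POD2 replicate 2 (0.0624). Col25a1 reached at most 0.538 CPM and was not tested.

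Multiplexins carry glycosaminoglycan chains at basement membranes, and type XVIII collagen is the precursor of endostatin. Col18a1 was the chain whose level varied most among those above 100 CPM on average. It stood at 98.3, 60.2 and 119.5 CPM in isotype POD1 and at 792, 764 and 726 CPM in isotype POD2. It stood at 26.7, 32.2 and 414 CPM in anti-Gr1 POD1 and at 384, 333 and 456 CPM in anti-Gr1 POD2. Isotype POD2 was above all others. Anti-Gr1 POD1 was split, with replicates 1 and 2 below every other library and replicate 3 within anti-Gr1 POD2, where its near-identical partner stands.

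Col18a1 rose 8.20-fold from isotype POD1 (92.7 ± 30 CPM) to isotype POD2 (752 ± 36.4 CPM), a log2 fold change of 3.04 ± 0.89 (adjusted p = 0.0182). The adjusted p was 0.0629 with the pairs merged, 1.34e-05 without the pair that spans the days and 0.00063 with both. DESeq2 gave no adjusted p for it. Leaving out isotype POD1 replicate 1 or replicate 2 lost the call (up to 0.066). At POD1 the antibody difference depended on the pair that spans the days. It was 0.76 ± 0.83 (adjusted p = 0.634) with all libraries and -1.65 (adjusted p = 0.00472) without that pair. At POD2 it was -0.96 (adjusted p = 0.375) with all libraries and -1.09 (adjusted p = 0.00915) without the pair. The day difference under anti-Gr1 moved from 1.31 (adjusted p = 0.436) to 3.60 (adjusted p = 7.24e-05) without the pair. In that fit only the near-identical replicates 1 and 2 stood for anti-Gr1 POD2.

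Summed hepatocyte markers, 12 genes, followed the same order, with 137267 to 141045 CPM in isotype POD2 and 9679 to 17090.4 CPM in isotype POD1. The values of anti-Gr1 at POD1 were 3885, 4618 and 40845 CPM, and anti-Gr1 at POD2 held 33363 to 40461 CPM. Col18a1 per 1000 CPM of these markers was 5.15 to 5.76 CPM in isotype POD2 and 6.22 to 11.5 in the other libraries, a range of 2.23 times where Col18a1 itself ranged 29.7 times. Of the 12 markers, 10 rose between the isotype days (6 with the pairs merged), where 23.0% of all genes rose. The part of the hepatocyte share in the Col18a1 differences was not tested.

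**Figure D5:**
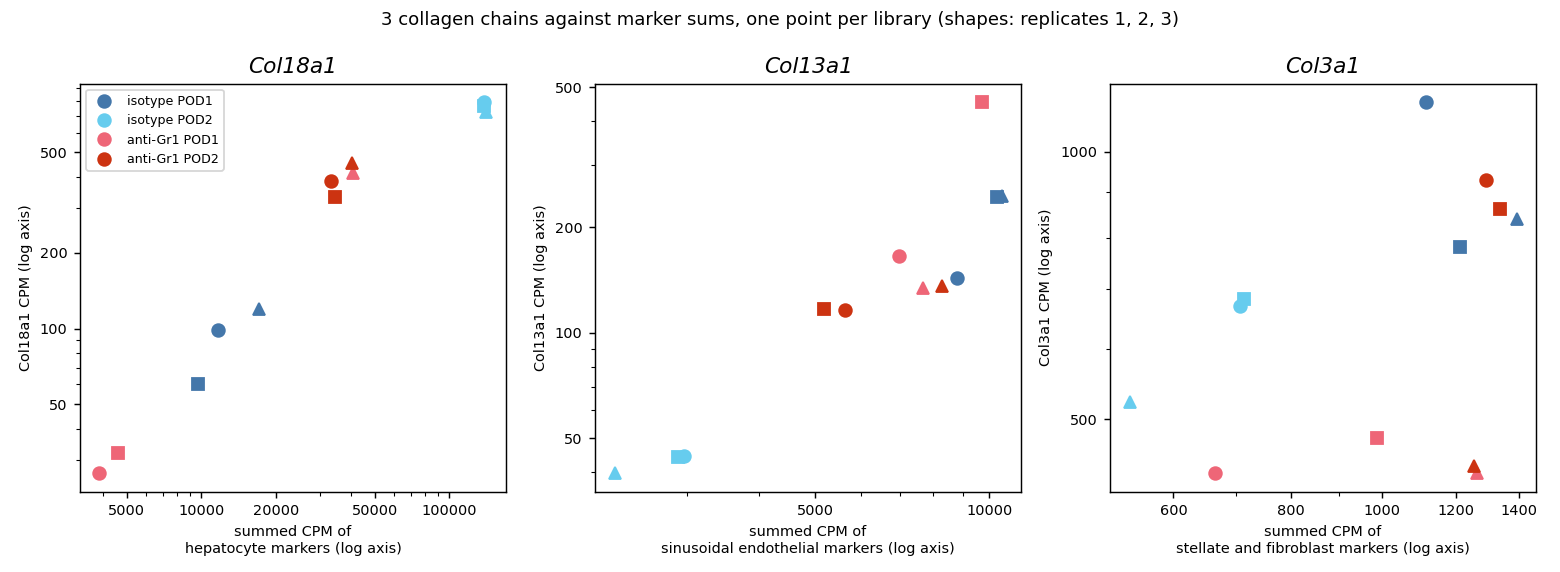
TMM-scaled CPM of Col18a1, Col13a1 and Col3a1 against the summed CPM of hepatocyte, sinusoidal endothelial and stellate or fibroblast markers, 1 point per library on log axes. Col18a1 per 1000 CPM of hepatocyte markers spans 5.15 to 11.5, and Col3a1 per 1000 CPM of stellate and fibroblast markers spans 344 to 1020.3.

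Col15a1, the other multiplexin, stood at 52.9, 28.7 and 38.0 CPM in isotype POD1 and at 36.0, 37.0 and 29.1 CPM in isotype POD2. It stood at 19.7, 8.85 and 15.1 CPM in anti-Gr1 POD1 and at 38.3, 37.0 and 19.3 CPM in anti-Gr1 POD2. Anti-Gr1 POD1 lay below isotype POD1 without overlap. The POD1 antibody difference was -1.46 ± 0.34 (adjusted p = 0.0446), from 39.9 ± 12.2 CPM under isotype to 14.5 ± 5.43 CPM. The adjusted p was 0.121 with the pairs merged, 0.0183 without the pair that spans the days and 0.0719 with both, and the call was lost without any 1 of the isotype POD1 libraries or anti-Gr1 POD1 replicate 2 (up to 0.128).

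Col7a1, the anchoring fibril chain of epithelia, varied within groups. It stood at 2.16, 2.98 and 0.658 CPM in isotype POD1 and at 5.83, 6.75 and 26.7 CPM in isotype POD2. With anti-Gr1 the level stood at 12, 0.724 and 2.69 CPM at POD1 and at 9.13, 9.09 and 2.01 CPM at POD2. The libraries with the highest acinar share (26.4% in isotype POD2 replicate 3 and 21.5% in anti-Gr1 POD1 replicate 1) had the highest values, and those with the lowest share (0.0122% in isotype POD1 replicate 3 and 0.149% in anti-Gr1 POD1 replicate 2) the lowest. Its isotype day difference was 2.75 ± 1.04 (adjusted p = 0.0502; 0.0786 merged, 0.052 without the pair that spans the days, 0.0889 with both). It was called with DESeq2 (0.00704), in the 2 groups alone (0.0237) and with library sizes taken without the acinar genes, and in 0 of 6 fits that left out a library. The part of the acinar transcripts was not tested. Col28a1 stayed at or below 1.14 CPM.

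Genes that act on collagen were grouped in 7 lists. Their counts stand against 20.8% of all genes called higher and 21.1% lower under anti-Gr1 at POD2, 23.0% that rose and 23.4% that fell between the isotype days, and 2.26% higher and 1.19% lower under anti-Gr1 at POD1. With the pairs merged and the pair that spans the days left out, 10.1% of all genes were called at POD2 in either direction. Of 23 genes for chain modification, folding and export, 8 were higher and 6 lower under anti-Gr1 at POD2. These became 5 and 1 with the pairs merged, and 0 and 0 with both changes. Between the isotype days 6 rose and 11 fell (5 and 10 with both changes). Serpinh1, the collagen chaperone HSP47, stood at 417, 391 and 337 CPM in isotype POD1 and at 148, 138 and 108 CPM in isotype POD2. Under anti-Gr1 it stood at 184, 195 and 153 CPM at POD1 and at 204, 207 and 157 CPM at POD2. Isotype POD1 was above all other groups. It was lower under anti-Gr1 at POD1 by a log2 fold change of -1.11 ± 0.18 (adjusted p = 0.0117), a call that held in the 3 further fits. P4ha1, a prolyl hydroxylase subunit, fell by 2.07 ± 0.24 between the isotype days (adjusted p = 0.00013), while Mia2, an export receptor of the endoplasmic reticulum, rose by 1.07 ± 0.13 (adjusted p = 0.000143). Tmem38b, an endoplasmic reticulum cation channel, rose by 1.45 ± 0.18 (adjusted p = 0.000186).

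Of 13 genes for propeptide cleavage and crosslinking, 2 were lower under anti-Gr1 at POD1 (Pcolce and Pcolce2, neither with the pairs merged). At POD2, 4 were higher (3 merged, 1 with both changes), and 7 fell and 1 rose between the isotype days (5 and 0 merged). Pcolce2, an enhancer of procollagen C-proteinase, fell by 2.78 ± 0.30 between the isotype days (adjusted p = 8.34e-05), from 40.1, 72.6 and 52.7 CPM to 8.07, 10.4 and 5.42 CPM. The lysyl oxidase relatives Loxl2, Loxl3 and Loxl4 also fell, by 1.01, 1.25 and 2.04 on the log2 scale (adjusted p = 0.00112, 0.000164 and 0.00188). Of 11 collagen receptors, 5 were higher under anti-Gr1 at POD2 (4 merged, 2 with both changes) and 6 fell between the isotype days (3 merged, 4 with both). Lair1, an inhibitory receptor of leukocytes, was higher at POD2 by 1.98 ± 0.30 (adjusted p = 0.000535), and Itga1, an integrin subunit, by 0.99 ± 0.23 (adjusted p = 0.00649), a call lost with both changes. Adgrg1, which binds type III collagen, fell by 1.35 ± 0.21 (adjusted p = 0.000612) between the isotype days, and Mrc2, an endocytic collagen receptor, had a difference between the antibody effects of 1.13 ± 0.27 (adjusted p = 0.0195), a call lost with the pairs merged.

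Among 16 fibril partners, 1 was lower under anti-Gr1 at POD1, and 3 were higher and 1 lower at POD2 (2 and 0 merged, 1 and 0 with both changes). Dcn, the fibril-binding proteoglycan decorin and also a stellate marker, was higher under anti-Gr1 at POD2 by 1.38 ± 0.23 (adjusted p = 0.000965). Fmod, the related fibromodulin, was lower at POD1 by a log2 fold change of -1.09 ± 0.26 (adjusted p = 0.0478), a call lost with the pairs merged, and Emilin1, an elastic fibre protein, fell by 1.03 ± 0.20 between the isotype days (adjusted p = 0.00196). Vtn, a plasma protein of hepatocytes, rose by 3.05 ± 0.83 (adjusted p = 0.0123) between the isotype days, as Col18a1 did. Of 15 basement membrane partners, 9 were higher under anti-Gr1 at POD2 (6 merged, 2 with both changes, Lama4 and Lama2), and 6 fell and 1 rose between the isotype days. The laminin chains Lama4, Lama5 and Lamb2 and the linker Nid1 were higher at POD2 by 1.39, 0.88, 0.65 and 1.35 (adjusted p = 0.00044, 0.00216, 0.00285 and 0.00375); with both changes Lama4 alone of these 4 was called.

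Of 17 genes of the TGF-beta axis, which drives collagen transcription, the median log2 fold change between the antibodies at POD1 was -0.18. At POD2, 10 were higher under anti-Gr1 (9 merged, and 1, Tgfbr2, with both changes), and 9 fell between the isotype days (7 with both). Tgfbr2, Tgfbr3, Smad7 and Eng fell by 1.76, 1.54, 1.47 and 1.66 (adjusted p = 0.000245, 0.000183, 0.00018 and 0.000271); Eng is also in the endothelial marker list. Of 15 collagen-degrading enzymes and inhibitors, 4 were higher under anti-Gr1 at POD1 (Mmp8, Mmp9, Mmp12 and Mmp13; Mmp8 and Mmp12 with the pairs merged), and 8 were higher and 1 lower at POD2 (6 and 0 merged). Mmp8, the neutrophil collagenase, stood at 29.9, 17.7 and 35.2 CPM in isotype POD1 and at 217, 612 and 182 CPM in anti-Gr1 POD1, a log2 fold change of 3.61 ± 0.52 (adjusted p = 0.00699). Mmp12 of macrophages was higher by 4.56 ± 0.51 (adjusted p = 0.00159) and Mmp9 by 2.39 ± 0.49 (adjusted p = 0.0307). Timp2, an inhibitor of these enzymes, was higher at POD2 by 1.15 ± 0.16 (adjusted p = 0.000339). Mmp8 and Mmp9 are also in the neutrophil marker list, of which 9 of 11 genes were higher under anti-Gr1 at POD1 (8 with the pairs merged).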

How the data were processed

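The deposited table holds raw gene counts of the authors, whole numbers without scaling, and all 12 of its columns were matched to samples by their labels. Per the submitters' processing notes, cutadapt, STAR, HTSeq and DESeq2 were used with the genome build GRCm38; no source used here gives the versions, the annotation or the strand handling. Coordinates and exon lengths came from GENCODE M21 (GRCm38), which held all 37 chains.

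The quasi-likelihood test of edgeR 4.0.16 (R 4.3.3, robust option) was run on the 15294 genes that filterByExpr left. A single model of 4 group means took all 12 libraries after TMM scaling. Adjusted p-values are Benjamini-Hochberg values over all genes tested, with a threshold of 0.05, and SE was obtained from the log2 fold change and the square root of F. Library totals of 13189392 to 15822043 counts set the precision, which is low for chains under about 1 CPM. The 5 comparisons were the antibodies at each day, the days under each antibody and the difference between the antibody effects. Heat map values are log2 CPM. Alternatives were other scalings, no filter, DESeq2 1.42.0, a test against a log2 change of 0.5, a replicate block, 2 groups alone, merged or left-out near-identical libraries and leaving out each library. The scripts were tested on simulated data.

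Chains with a mean of at least 5 CPM (23) and chains called in any comparison (10) were named, 25 in all; from the pathway lists up to 4 genes with the smallest p were named, and marker lists are given as sums and counts. Pcolce, Mmp13, Lama2, Oit3 and Fcgr2b, outside that rule, were chosen after their values were seen. The marker genes Des, Pdgfrb, Reln and Lrat are also named outside it. The members and lists were chosen with earlier results of these data known.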

Additional observations from a re-analysis of the deposited data

Results flagged for a closer look

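The antibody effect differed between the days for 3 chains by the interaction test of edgeR. For Col6a1 the effect at POD2 minus that at POD1 was 1.35 ± 0.32 on the log2 scale (adjusted p = 0.019), with levels of 92.1 and 45.9 CPM at POD1 (isotype, anti-Gr1) and 68.2 and 80.9 CPM at POD2. For Col6a2 it was 1.28 ± 0.37 (adjusted p = 0.0378), with 82.6 and 38.0 CPM at POD1 and 69.7 and 70.9 CPM at POD2. For Col5a2 it was 1.21 ± 0.27 (adjusted p = 0.0155), with 76.7 and 48.1 CPM at POD1 and 46.5 and 65.8 CPM at POD2. In the order Col6a1, Col6a2 and Col5a2, the adjusted p-values were 0.0726, 0.117 and 0.0575 when the near-identical libraries of a group were merged, and 0.00421, 0.0103 and 0.0123 without the pair that spans the days, and 0.087, 0.122 and 0.132 with both. Leaving out each of the 12 libraries in turn kept the call in 12 fits for Col6a1 and Col5a2 and in 3 for Col6a2. Those 3 were without anti-Gr1 POD1 replicate 1 or 2 or anti-Gr1 POD2 replicate 3, and the adjusted p was up to 0.0896 in the others. Each of the 12 fits still held a near-identical same-group pair as separate libraries, so its p-values can be too small.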

How the results depend on the processing

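No called chain reversed its direction in any alternative: 230 values kept direction and call and 73 kept direction only. The numbers of chains called did move. Where a DESeq2 count is given below, DESeq2 called 8.65% of all genes at POD1 and 47.1% between the isotype days. It called 0.680% between the anti-Gr1 days and 21.9% for the difference between the antibody effects. The shares of all genes are not given for fits without scaling, against 0.5, with a replicate block, in the 2 groups alone or leaving out a library. Those counts of chains therefore cannot be set against a background. At POD1 between the antibodies (3), the count was 8 with DESeq2, 0 in the test against a log2 change of 0.5, 0 with the same-group pairs merged, 16 without the pair that spans the days, 7 with both, 0 in the 2 groups alone and 0 to 12 when leaving out a library. It was 0 on leaving out any isotype POD1 library or the second anti-Gr1 POD1 library, and 12 on leaving out the third anti-Gr1 POD1 library. At POD2 (5), it was 10 without scaling factors, 1 against 0.5, 3 merged, 9 without the pair, 0 with both, 11 in the 2 groups alone and 3 to 6 leaving out a library. Between the isotype days (6), it was 13 without scaling, 7 with DESeq2, 3 against 0.5, 5 merged and 9 without the pair. It was 11 in the 2 groups alone and 3 to 6 leaving out a library. Between the anti-Gr1 days (0), it was 2 with DESeq2, 18 without the pair, 7 with both and 0 to 14 leaving out a library, with 14 on leaving out the third anti-Gr1 POD1 library and 4 on leaving out the third anti-Gr1 POD2 library. For the difference between the antibody effects (3), it was 11 without scaling, 8 with DESeq2, 0 against 0.5, 0 merged, 14 without the pair, 0 with both and 2 to 8 leaving out a library. Without scaling factors, the median of all genes shifted to -0.14, 0.44, -0.66, -0.12 and 0.57 in these 5 comparisons, so those counts are relative to a shifted centre. Without the pair, anti-Gr1 POD2 held only its near-identical replicates 1 and 2. With both changes it was 1 merged library. The cause of the other moves was not tested.

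With the replicate number as a block the counts were 2, 5, 6, 0 and 3. Same-numbered libraries correlated between -0.29 and 0.358 in their deviations from the group means. These values cannot decide whether the numbers pair libraries, because the near-identical replicates 3 of anti-Gr1 POD1 and POD2 gave only 0.237. Depth limits the chains under 1 CPM, where counts as low as 3 per library carry a call.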
